A study of Mus musculus with 12 samples.

Results

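The genes described are 10 components of TNF receptor signaling, taken by symbol from a table of 46731 genes: the ligand *Tnf*, the receptors *Tnfrsf1a* and *Tnfrsf1b*, the adaptors *Traf1*, *Traf2* and *Traf3*, the ubiquitin ligases *Birc2* and *Birc3*, the kinase *Ripk1* and the caspase-8 regulator *Cflar*. Each symbol was found once. RNA was measured in ATDC5 cells, a chondrogenic line that came from a mouse teratocarcinoma, after lentiviral integration of a short hairpin RNA, in 4 groups of 3 libraries. The shRNA-NC cells carried a control hairpin and the shRNA-*Ddx5* cells were a stable line with a hairpin against *Ddx5*, an RNA helicase, and each was collected at 6 h either unstimulated (medium) or with IL-1β and TNF-α given together (cytokines). All 4 groups therefore carried a hairpin vector, the knockdown is known from 1 stable line, and responses to IL-1β and to TNF-α cannot be told apart. The comparisons ask what the cytokines changed in each line, what the knockdown changed in each medium, and whether the cytokine response differed between the lines.

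TNF, a trimeric cytokine, binds the receptors TNFR1 (gene *Tnfrsf1a*), which most cells carry, and TNFR2 (*Tnfrsf1b*), which is more restricted and often inducible. At TNFR1 a complex with TRADD, RIPK1, TRAF2 and the cellular inhibitors of apoptosis cIAP1 (*Birc2*) and cIAP2 (*Birc3*) builds ubiquitin chains that recruit the kinases of the NF-κB and MAP kinase pathways, and several of its components, among them *Traf1*, *Birc3* and *Cflar*, are known NF-κB target genes. When that complex fails, RIPK1, FADD and caspase-8 can start cell death, which the product of *Cflar* (cFLIP) restrains. In cartilage, TNF and IL-1 are known for driving the loss of matrix.

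Promoter sequence is shown for the 3 members whose RNA rose most with cytokines (*Traf1*, *Birc3* and *Tnfrsf1b*), for *Traf3* and for *Tnf*, because the windows differ in the motifs they hold. Each run is the 250 bases before the start site, 5′ to 3′ on the strand of the gene, from RefSeq on GRCm38.p6, whereas the positions of the genes in the files follow GRCm39. Capitals mark a motif match.
Traf1, chr2:34961773-34962022, minus strand: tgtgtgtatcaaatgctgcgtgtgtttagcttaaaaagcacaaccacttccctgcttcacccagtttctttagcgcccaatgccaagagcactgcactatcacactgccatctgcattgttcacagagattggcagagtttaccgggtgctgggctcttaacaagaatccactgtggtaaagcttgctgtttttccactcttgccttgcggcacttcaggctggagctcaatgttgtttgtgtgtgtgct
Birc3, chr9:7873171-7873420, minus strand: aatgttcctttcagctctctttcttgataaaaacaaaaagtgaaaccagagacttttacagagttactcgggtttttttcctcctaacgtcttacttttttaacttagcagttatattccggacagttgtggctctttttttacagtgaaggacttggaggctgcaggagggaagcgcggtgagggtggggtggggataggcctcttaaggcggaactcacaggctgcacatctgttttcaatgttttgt
Tnfrsf1b, chr4:145246871-145247120, minus strand: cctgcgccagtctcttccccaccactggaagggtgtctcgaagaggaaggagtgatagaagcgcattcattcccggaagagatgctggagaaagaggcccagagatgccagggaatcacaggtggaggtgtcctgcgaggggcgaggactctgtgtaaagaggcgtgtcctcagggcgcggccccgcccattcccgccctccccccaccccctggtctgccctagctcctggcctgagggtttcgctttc
Traf3, chr12:111166120-111166369, plus strand: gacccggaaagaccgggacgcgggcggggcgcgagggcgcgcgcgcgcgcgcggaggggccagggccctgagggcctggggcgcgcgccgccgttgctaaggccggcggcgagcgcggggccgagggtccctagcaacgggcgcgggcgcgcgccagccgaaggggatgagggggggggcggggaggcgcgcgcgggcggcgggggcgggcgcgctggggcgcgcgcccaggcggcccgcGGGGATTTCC
Tnf, chr17:35202008-35202257, minus strand: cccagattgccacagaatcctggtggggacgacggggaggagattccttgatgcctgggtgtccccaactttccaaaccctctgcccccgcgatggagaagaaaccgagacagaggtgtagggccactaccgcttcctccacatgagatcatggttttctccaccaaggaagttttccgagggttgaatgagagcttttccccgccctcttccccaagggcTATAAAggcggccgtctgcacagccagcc

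RefSeq held a window of 250 bases before to 50 after the start for all 10 members, 12 windows in all because *Birc2* and *Ripk1* have 2 each. The NF-κB consensus, searched on both strands, was in 1 of the 10 members, *Traf3*, where it reads GGGGATTTCC and starts at base -10. It was in a window of 9.55% of all 27025 genes with one. The AP-1 motif TGANTCA, searched on both strands, was in no member's window and in 8.97% of all genes. TATAAA, searched on the strand of the gene, was in *Tnf* at base -29 and in *Cflar* at base -132, and in 9.77% of all genes. The windows of *Traf1*, *Birc3* and *Tnfrsf1b* hold none of these 3 motifs, which says only that these letters are not in these stretches.

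Between 14119199 and 19276520 fragments lay on genes in each library. Levels are given as FPKM, fragments scaled by gene length and library, as the authors deposited them. Differences are on log2(FPKM + 1), on which the change of a gene at or under 1 FPKM looks smaller than it is, with their standard error (SE) and a p-value from limma, fitted to all 12 libraries and adjusted by the Benjamini-Hochberg method over the 12368 genes that reached 1 FPKM in at least 3 libraries, with a threshold of 0.05. Of the 10 members 9 passed this filter and *Tnf* did not. *Ddx5* had 319 ± 22.3 FPKM (SD, n = 3) in shRNA-NC medium and 103 ± 13.9 (SD, n = 3) in shRNA-*Ddx5* medium, 310 ± 14.9 (SD, n = 3) and 99.5 ± 5.27 (SD, n = 3) with cytokines. The labelled chondrocyte character was only in part visible: 5 of 13 chondrocyte markers reached 1 FPKM in any library, with *Sox9* at a mean of 27.5 and *Col2a1* at 12.4 FPKM in shRNA-NC medium, while *Acan*, the core protein of aggrecan, was at most 0.0330 FPKM in every library. Because RNA came from bulk cultures, fewer cells of a type and less RNA per cell cannot be told apart.

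The ligand and its nearest relatives were almost absent. *Tnf* (gene 21926, chromosome 17, 35418343 to 35420983, minus strand, GRCm39) had 0 fragments in 11 of 12 libraries and 2 fragments, 0.0732 FPKM, in shRNA-*Ddx5* cytokines replicate 1. A count of 0 allows up to 3 fragments, or 0.0880 to 0.121 FPKM for this gene at these depths, in counting error only. The TNF-α given to the cells was protein, so it adds no fragments. *Lta* and *Ltb*, which encode the lymphotoxins, were at most 0.110 and 0.164 FPKM in any library, with the highest value in shRNA-NC cytokines for both.

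**Figure D1:**
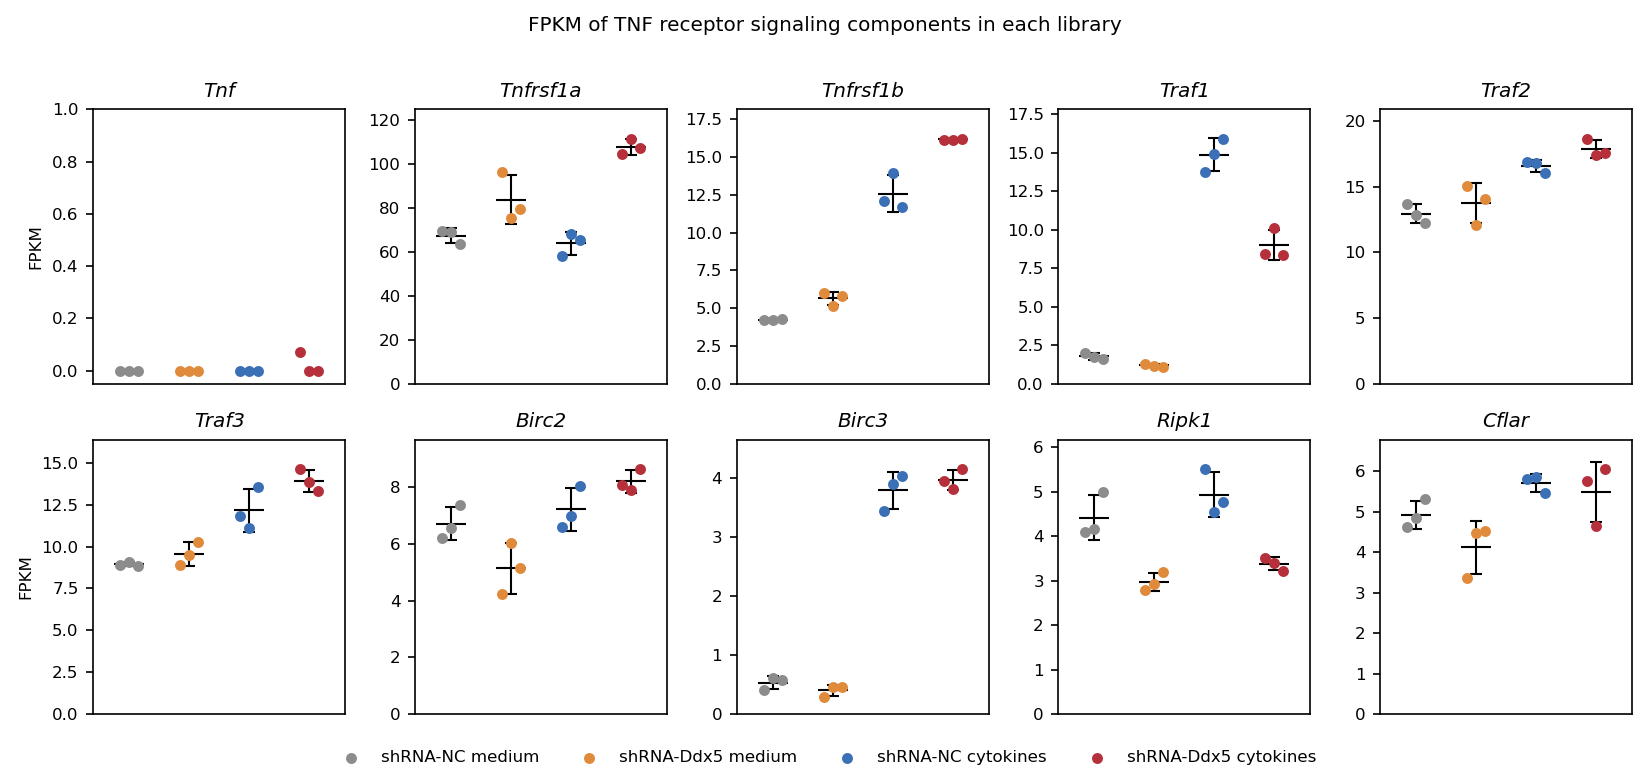
FPKM of the 10 members (vertical axes, each with its own scale from 0, and for *Tnf* drawn to 1 FPKM) in each of the 12 libraries, with 1 point per library, colour for the group, and a line and bars for the mean and SD over 3 libraries (not drawn for *Tnf*). *Tnfrsf1b*, *Traf1* and *Birc3* are far higher with cytokines in both lines, and *Tnfrsf1a* stands above 100 FPKM only in shRNA-*Ddx5* cytokines.

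*Tnfrsf1a* (gene 21937, chromosome 6, 125326686 to 125339446, plus strand), the death domain receptor TNFR1, had the highest FPKM of the members in every library. In shRNA-NC cells it had 69.7, 69.2 and 63.5 FPKM in medium and 58.0, 68.2 and 65.4 with cytokines, and these groups overlap. In shRNA-*Ddx5* cells it had 96.6, 75.4 and 79.4 FPKM in medium and 104, 112 and 107 with cytokines, with no overlap between them or with the shRNA-NC group of the same medium. The cytokine difference was -0.08 in shRNA-NC (SE 0.10, limma adjusted p = 0.56, 95% interval -0.30 to 0.14) and 0.37 in shRNA-*Ddx5* cells (SE 0.10, limma adjusted p = 0.019). Without 1 library the latter was 0.30 (limma adjusted p = 0.071, without shRNA-*Ddx5* medium replicate 2) and 0.33 (0.076, without replicate 3 of that group), or 0.34 and 0.37 (0.069 and 0.053, without shRNA-*Ddx5* cytokines replicate 2 or 3). The receptor was therefore higher in the knockdown line, by 1.69 times in mean FPKM with cytokines (log2 difference 0.75, SE 0.10, limma adjusted p = 1.3e-04). In medium it was 1.24 times higher (log2 difference 0.30, SE 0.10, limma adjusted p = 0.027), and the adjusted p was 0.052 without shRNA-NC medium replicate 2, 0.076 without replicate 3 and 0.094 without shRNA-*Ddx5* medium replicate 1. Under quantile normalization the medium difference fell to 0.03 (limma adjusted p = 0.78), so that the rise of *Tnfrsf1a* in medium depends on how the libraries are scaled. Under the same normalization the cytokine difference in shRNA-NC cells became -0.31 (limma adjusted p = 0.019) and that in shRNA-*Ddx5* cells 0.21 (0.098).

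*Tnfrsf1b* (gene 21938, chromosome 4, 144938938 to 144973453, minus strand), the receptor TNFR2 that lacks a death domain, rose with cytokines in both lines and was higher in the knockdown line in both media. It had 4.21, 4.23 and 4.26 FPKM in shRNA-NC medium and 12.1, 13.96 and 11.7 with cytokines. The shRNA-*Ddx5* libraries had 5.99, 5.16 and 5.78 FPKM in medium and 16.1, 16.1 and 16.2 with cytokines. None of the 4 groups overlap. The cytokine difference was 1.37 in shRNA-NC (SE 0.08, limma adjusted p = 2.7e-07) and 1.37 in shRNA-*Ddx5* cells (SE 0.08, limma adjusted p = 2.0e-07), or 2.97 and 2.86 times in mean FPKM. The knockdown difference was 0.34 in either medium (SE 0.08, limma adjusted p = 0.0045 in medium and 0.0047 with cytokines), or 1.33 and 1.29 times. The share of *Tnfrsf1b* in the summed FPKM of the 2 receptors went from 5.91% ± 0.32 (SD, n = 3) in shRNA-NC medium to 16.5% ± 1.13 (SD, n = 3) with cytokines, and from 6.34% ± 0.48 (SD, n = 3) to 13.0% ± 0.38 (SD, n = 3) in the knockdown line.

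*Traf1* (gene 22029, chromosome 2, 34831762 to 34851784, minus strand) encodes the TRAF protein that lacks a RING domain and joins complexes of TRAF2. It had the largest cytokine difference of the members on log2(FPKM + 1) in both lines, although by the ratio of mean FPKM *Birc3* rose more in the knockdown line, and was lower in the knockdown line in both media. In shRNA-NC cells it had 1.99, 1.73 and 1.58 FPKM in medium and 13.8, 14.9 and 15.9 with cytokines, 8.39 times in the mean (log2 difference 2.52, SE 0.10, limma adjusted p = 9.8e-09). In shRNA-*Ddx5* cells it had 1.31, 1.17 and 1.09 FPKM in medium and 8.45, 10.1 and 8.37 with cytokines, 7.56 times (log2 difference 2.19, SE 0.10, limma adjusted p = 2.3e-08). The 4 groups do not overlap. With cytokines the knockdown line had 0.604 times the shRNA-NC mean (log2 difference -0.67, SE 0.10, limma adjusted p = 2.1e-04). In medium it had 0.671 times (log2 difference -0.34, SE 0.10, limma adjusted p = 0.013), and the adjusted p was 0.053 without shRNA-NC medium replicate 1 and 0.051 without shRNA-*Ddx5* medium replicate 3. *Traf1* overlaps a gene on the other strand, Gm52552, whose highest value in any library was 0.481 FPKM.

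*Traf2* (gene 22030, chromosome 2, 25407994 to 25436952, minus strand), the adaptor that brings the inhibitors of apoptosis to the receptor, rose by less with cytokines. It had 13.7, 12.9 and 12.3 FPKM in shRNA-NC medium and 16.9, 16.8 and 16.1 with cytokines, a log2 difference of 0.33 (SE 0.08, limma adjusted p = 0.0099). The knockdown line had 15.1, 12.1 and 14.1 FPKM in medium and 18.7, 17.4 and 17.6 with cytokines, a log2 difference of 0.36 (SE 0.08, limma adjusted p = 0.0080). The 2 lines overlap in medium, and with cytokines all 3 knockdown libraries were above the shRNA-NC libraries, but neither knockdown difference passed the threshold (0.08 in medium and 0.10 with cytokines, limma adjusted p = 0.47 and 0.33). The 95% intervals of those differences were -0.10 to 0.26 and -0.08 to 0.29. When FPKM was rescaled to the sum of fragments the medium difference of *Traf2* was -0.0145 and that of *Traf3* was -0.0069. *Traf2* and *Traf3* each overlap a gene on the other strand, at most 1.87 FPKM (Gm13433) and 0.233 FPKM (4930595D18Rik) in any library.

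*Traf3* (gene 22031, chromosome 12, 111132755 to 111233589, plus strand), which holds the noncanonical NF-κB kinase NIK in check, had 8.91, 9.07 and 8.84 FPKM in shRNA-NC medium and 11.8, 11.1 and 13.6 with cytokines. The shRNA-*Ddx5* libraries had 8.87, 9.50 and 10.3 FPKM in medium and 14.6, 13.9 and 13.3 with cytokines. The cytokine groups stand above the medium groups in both lines, with log2 differences of 0.40 in shRNA-NC (SE 0.08, limma adjusted p = 0.0040) and 0.50 in shRNA-*Ddx5* cells (SE 0.08, limma adjusted p = 0.0010). The lines overlap in both media. The knockdown difference with cytokines was 0.19 (SE 0.08, limma adjusted p = 0.094), and without shRNA-NC cytokines replicate 3 it was 0.26 (limma adjusted p = 0.032). In medium it was 0.08 (limma adjusted p = 0.45). The share of *Traf1* in the summed FPKM of the 3 TRAF genes was 7.46% ± 0.58 (SD, n = 3) in shRNA-NC medium and 34.1% ± 1.41 (SD, n = 3) with cytokines, and 4.85% ± 0.51 (SD, n = 3) and 22.0% ± 2.16 (SD, n = 3) in the knockdown line.

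*Birc3* (gene 11796, chromosome 9, 7848698 to 7873199, minus strand), which encodes cIAP2, rose from below 1 FPKM, and passed the filter only through the cytokine groups, where it is high. It had 0.404, 0.605 and 0.584 FPKM in shRNA-NC medium and 3.44, 3.90 and 4.03 with cytokines, 7.13 times in the mean (log2 difference 1.65, SE 0.09). The knockdown line had 0.293, 0.449 and 0.462 FPKM in medium and 3.95, 3.81 and 4.15 with cytokines, 9.88 times (log2 difference 1.83, SE 0.09). Because the filter let *Birc3* in through these groups, no p-value of its rises is given, although both count below as past the threshold. Between 22 and 56 fragments lay behind each medium value and between 262 and 345 behind each cytokine value. The lines overlap in both media, and the knockdown differences were -0.13 in medium (95% interval -0.33 to 0.08, limma adjusted p = 0.29) and 0.06 with cytokines (95% interval -0.15 to 0.26, limma adjusted p = 0.66).

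*Birc2* (gene 11797, chromosome 9, 7818227 to 7837123, minus strand), which encodes cIAP1 and lies next to *Birc3*, passed the test with cytokines in the knockdown line and did not in shRNA-NC cells. It had 6.23, 6.56 and 7.37 FPKM in shRNA-NC medium and 6.61, 6.99 and 8.06 with cytokines, which overlap (log2 difference 0.09, SE 0.11, 95% interval -0.16 to 0.34, limma adjusted p = 0.57). In shRNA-*Ddx5* cells it had 4.22, 6.04 and 5.16 FPKM in medium and 8.09, 7.89 and 8.65 with cytokines, 1.597 times in the mean (log2 difference 0.59, SE 0.11, limma adjusted p = 0.0024). In medium the knockdown libraries were all below the shRNA-NC libraries, at 0.765 times the mean (log2 difference -0.34, SE 0.11, limma adjusted p = 0.030). Of the single libraries, leaving out shRNA-NC medium replicate 2 or 3 or shRNA-*Ddx5* medium replicate 1 or 3 put that adjusted p at 0.060, 0.091, 0.11 and 0.064, with the difference between -0.23 and -0.35. With cytokines the knockdown difference was 0.17 (SE 0.11, limma adjusted p = 0.25). *Birc2* and *Birc3* are related in sequence and share 65 of their words of 50 bases, 0.891% of those of *Birc2* and 0.721% of those of *Birc3*. The share of *Birc3* in their summed FPKM was 7.30% ± 1.18 (SD, n = 3) in shRNA-NC medium and 34.4% ± 1.25 (SD, n = 3) with cytokines, and 7.22% ± 0.89 (SD, n = 3) and 32.6% ± 0.19 (SD, n = 3) in the knockdown line.

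**Figure D2:**
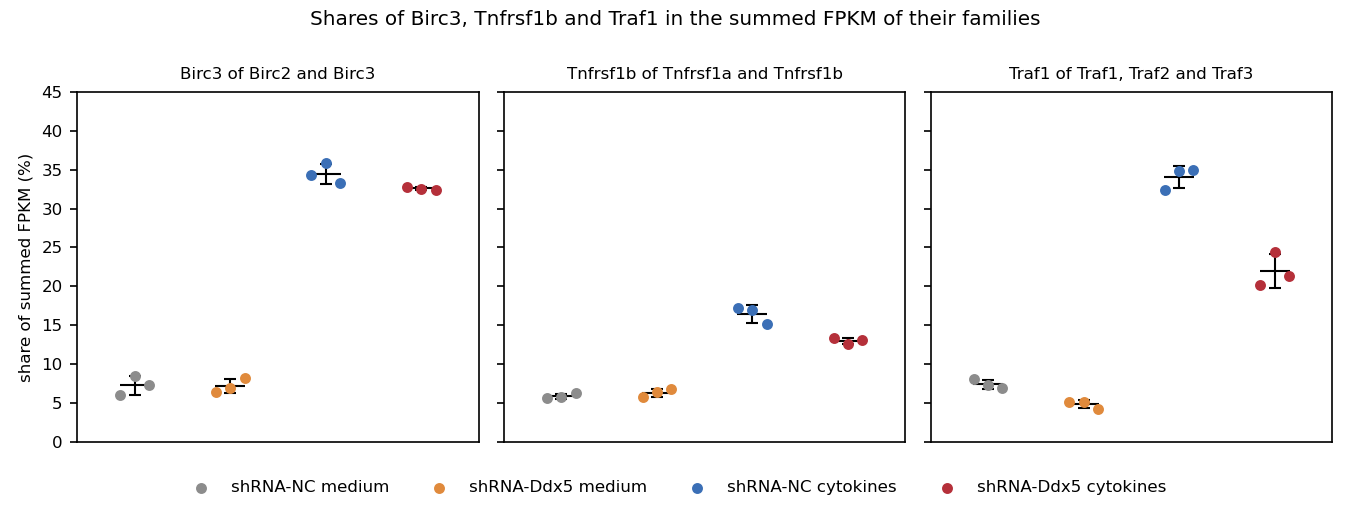
Share of *Birc3*, *Tnfrsf1b* and *Traf1* in the summed FPKM of their families (vertical axis, percent), with 1 point per library, colour for the group, and a line and bars for the mean and SD over 3 libraries. With cytokines *Birc3* holds 34.4% and 32.6% of its family in the 2 lines, while the mean share of *Traf1* is 34.1% in shRNA-NC and 22.0% in shRNA-*Ddx5* cells.

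*Ripk1* (gene 19766, chromosome 13, 34181072 to 34219153, plus strand), the kinase that carries the ubiquitin chains and can pass the signal to cell death, was lower in the knockdown line in both media. It had 4.10, 4.16 and 5.00 FPKM in shRNA-NC medium and 2.78, 2.92 and 3.19 in shRNA-*Ddx5* medium, 0.671 times in the mean (log2 difference -0.45, SE 0.09, limma adjusted p = 0.0024). With cytokines it had 5.51, 4.54 and 4.76 FPKM in shRNA-NC and 3.51, 3.403 and 3.22 in shRNA-*Ddx5* cells, 0.685 times (log2 difference -0.44, SE 0.09, limma adjusted p = 0.0028). In both media the lines do not overlap. The cytokine differences were 0.13 and 0.14 (SE 0.09 each, limma adjusted p = 0.30 and 0.28). In the GRCm39 annotation searched for overlap, *Ripk1* has 10993 exon bases and shares 241 of them, 2.19%, with *Serpinb6a* on the other strand. The gene length behind the deposited FPKM is 16571 bases, so the overlap in the gene model that was counted is not known. The sources used here do not say whether counting used strand. *Serpinb6a* had a mean of 106 FPKM in shRNA-NC and 82.6 in shRNA-*Ddx5* medium and moved with the knockdown in the same direction (log2 difference -0.36 in medium and -0.34 with cytokines, limma adjusted p = 0.0042 and 0.0060), and its part in the *Ripk1* values was not tested.

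*Cflar* (gene 12633, chromosome 1, 58750353 to 58798043, plus strand) encodes cFLIP, a catalytically inactive relative of caspase-8. It had 4.61, 4.84 and 5.31 FPKM in shRNA-NC medium and 5.81, 5.86 and 5.45 with cytokines (log2 difference 0.18, SE 0.11, limma adjusted p = 0.24). The knockdown line had 3.37, 4.47 and 4.54 FPKM in medium and 5.77, 4.64 and 6.06 with cytokines (log2 difference 0.34, SE 0.11, limma adjusted p = 0.044). Cytokine libraries were above medium libraries in both lines. The second difference was near the threshold: it missed it in 8 of the 12 fits that leave out 1 library, with adjusted p-values of 0.053 and 0.061 without shRNA-NC medium replicate 1 or 2, 0.12 and 0.053 without shRNA-*Ddx5* medium replicate 1 or 3, 0.056 and 0.058 without shRNA-NC cytokines replicate 2 or 3, and 0.14 and 0.15 without shRNA-*Ddx5* cytokines replicate 1 or 3. The knockdown differences were -0.21 in medium, where the lines do not overlap (limma adjusted p = 0.14), and -0.05 with cytokines, where they do (limma adjusted p = 0.73).

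**Figure D3:**
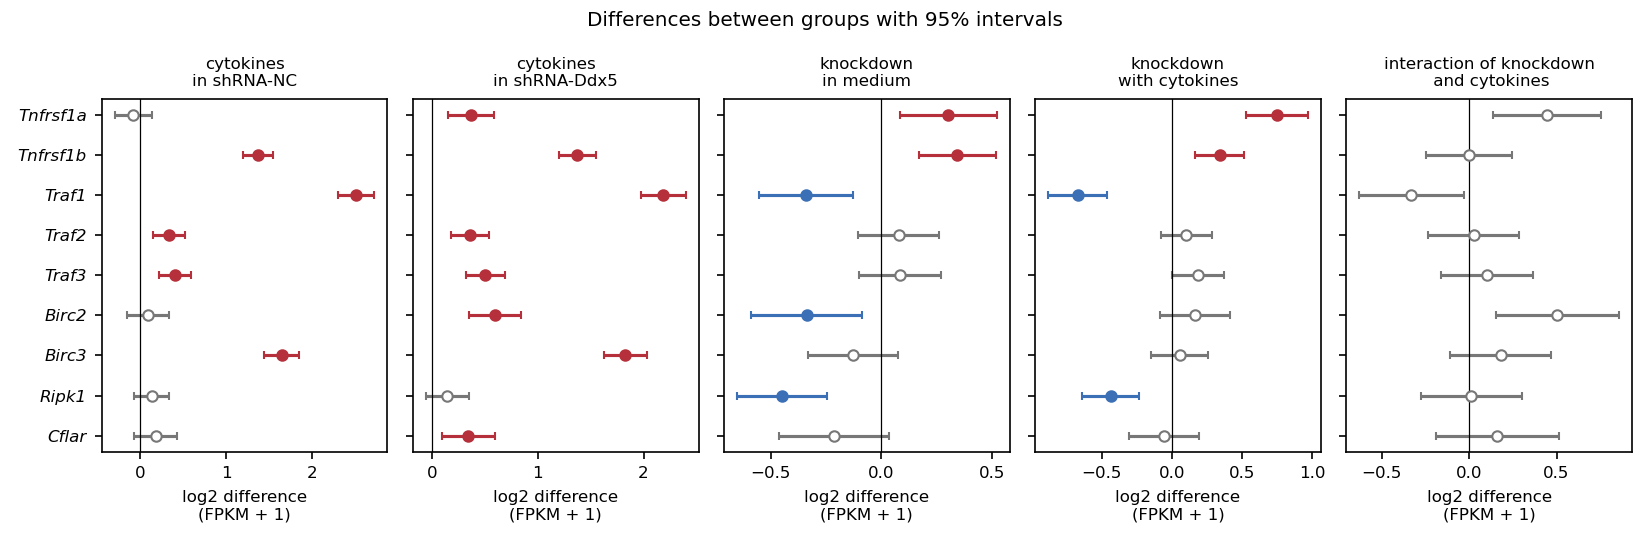
Log2 differences of FPKM + 1 (horizontal axes) of the 9 tested members in the 5 comparisons, with bars for 95% intervals from limma. Filled red points rose and filled blue points fell past the threshold, and open points did not pass. *Traf1*, at 2.52 and 2.19, *Birc3* and *Tnfrsf1b* lie farthest from 0 in the cytokine comparisons, and no member passes in the interaction.

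Counted over the members, with *Birc3* in the test only through its cytokine level, cytokines raised 5 of 9 tested in shRNA-NC cells and lowered 0, where 33.8% of all genes tested changed, 18.6% up and 15.2% down. In shRNA-*Ddx5* cells 8 of 9 rose and 0 fell, where 27% of all genes changed, 13.5% in each direction. Of the 9 members 6 in shRNA-NC and 9 in shRNA-*Ddx5* cells had all cytokine libraries above all medium libraries, where 45.7% and 47.3% of all genes had groups that do not overlap in either direction. The median difference over the members was 0.33 and 0.50, and over all genes tested 0.02 and 0.00014. With the knockdown 2 members rose and 3 fell in medium, where 47% of all genes changed, 25.3% up and 21.7% down, and the groups of 6 members do not overlap, against 53.5% of all genes. With cytokines 2 rose and 2 fell with the knockdown, where 45.6% of all genes changed, 23.5% up and 22.1% down, and the groups of 5 members do not overlap, against 61.6% of all genes. The members' shares in both knockdown comparisons were thus near those of all genes. The cytokine and knockdown comparisons share libraries, so their counts are not independent of each other.

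Whether the cytokine response differed between the lines was tested as an interaction. By limma 0 of 9 members passed the threshold, where 8.21% of all genes tested did (3.46% positive and 4.75% negative), and 3 of 9 had an unadjusted p under 0.05. *Tnfrsf1a* had an interaction of 0.45 (SE 0.14, limma adjusted p = 0.079), *Birc2* of 0.50 (SE 0.16, limma adjusted p = 0.081) and *Traf1* of -0.33 (SE 0.14, limma adjusted p = 0.17), the last negative because the rise was smaller in the knockdown line. Without shRNA-*Ddx5* medium replicate 1 the value of *Tnfrsf1a* was 0.55 (limma adjusted p = 0.018), and without replicate 2 of that group that of *Birc2* was 0.61 (limma adjusted p = 0.034). Quantile normalization also put *Tnfrsf1a* past the threshold (0.52, limma adjusted p = 0.025), and with voom weights in limma the count was again 0. The interaction of *Tnfrsf1b* was -0.00081 with a 95% interval of -0.25 to 0.25.

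Of 10 blood markers 3 reached 1 FPKM in any library, and the summed level of the list moved with the groups. *Ptprc*, the pan-leukocyte marker, and *Cd3e* had 0 FPKM in all libraries, and 6 of the 10 were at 3 fragments or fewer in every library. Their summed level was 5.30 to 5.63 FPKM in shRNA-NC medium, 6.11 to 7.63 in shRNA-*Ddx5* medium, 7.88 to 10.6 in shRNA-NC cytokines and 11.4 to 12.1 in shRNA-*Ddx5* cytokines. In the same order *Cd14*, the co-receptor for lipopolysaccharide, had means of 3.88, 4.29, 7.17 and 9.50 FPKM and *Cd68* of 1.42, 1.10, 1.76 and 1.40. The macrophage genes *Lyz2* and *Csf1r* were higher in the knockdown line, with means of 0.0518, 0.934, 0.0504 and 0.569 FPKM for *Lyz2* and 0.0887, 0.381, 0.0327 and 0.267 for *Csf1r*. The 5 endothelial markers summed to at most 0.151 FPKM. Fibroblast markers, of which 6 of 7 reached 1 FPKM in any library and *Thy1* stayed at the floor, summed to 527 to 540 FPKM in shRNA-NC medium, 2059 to 2164 in shRNA-*Ddx5* medium, 245 to 405 in shRNA-NC cytokines and 1547 to 1791 in shRNA-*Ddx5* cytokines. Most of this sum is *Col1a2*, with means of 499, 1738, 319 and 1321 FPKM in that order. *Col1a1*, *Col1a2* and *Col3a1* had lower means with cytokines in both lines, whereas *Pdgfra*, *Dcn* and *Lum* had higher ones. The chondrocyte list summed to 40.9 to 47.4, 27.8 to 31.5, 14.8 to 21.1 and 9.83 to 11.1 FPKM in the same order. Most of that sum is *Sox9* (means of 27.5, 24.1, 8.76 and 5.40 FPKM) and *Col2a1* (12.4, 0.899, 6.33 and 0.779). *Sox6* (0.171, 0.914, 0.124 and 0.333), *Prg4*, *Col9a1*, *Hapln1* and *Col10a1* had higher means with the knockdown in both media, so the sums do not stand for every marker. The shifts of the sums move with the same groups as *Tnfrsf1a*, *Tnfrsf1b*, *Traf1* and *Ripk1*, and their part in those values was not tested.

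The genes whose pattern over the 12 libraries was most like that of the 3 members that rose most were found by Pearson correlation of log2(FPKM + 1), given as a description because the libraries share their groups. Nearest to *Traf1* were *Btg2* (r = 0.995), *Maff* (r = 0.995) and *Abcc1* (r = 0.994). Nearest to *Birc3* were *Tnfaip3* (r = 0.997), Gm16685 (r = 0.996) and *Rgs16* (r = 0.996). Nearest to *Tnfrsf1b* were *Tnfaip2* (r = 0.996), *Slc11a2* (r = 0.996) and *Denn2b* (r = 0.996).

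Of 114 other genes of the pathway in 8 lists, 80 were tested. Cytokines raised 32 and lowered 9 of them in shRNA-NC cells, and raised 28 and lowered 7 in shRNA-*Ddx5* cells, where 33.8% and 27% of all genes changed, with medians of 0.24 and 0.20 against 0.02 and 0.00014 over all genes. With the knockdown 20 rose and 19 fell in medium and 25 rose and 17 fell with cytokines, near the 47% and 45.6% of all genes that changed, with medians of -0.03 and 0.03. Counts of single lists below are to be read against these shares of all genes, and a difference in count between the lines was not tested as such. *Tnfsf15*, *Map3k5* and *Map3k8*, which passed the filter only through cytokine groups, are among the 80 genes. So is *Map2k6*, which passed it only through shRNA-*Ddx5* medium. The interaction was past the threshold for 18, of which 12 were positive, and where 8.21% of all genes passed. Every log2 difference printed in the next paragraphs passed the threshold in limma. The limma adjusted p-values were at most 0.012 for cytokines in shRNA-NC. For cytokines in shRNA-*Ddx5* cells they were at most 0.0067, apart from *Timp3* and *Adam10*, whose values are printed there. They were at most 8.4e-04 and 3.3e-04 for the knockdown in medium and with cytokines, and 0.0035 for the interaction. *Adam17*, *Tradd* and *Casp8* are given by means and did not pass for cytokines in shRNA-NC cells.

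**Figure D4:**
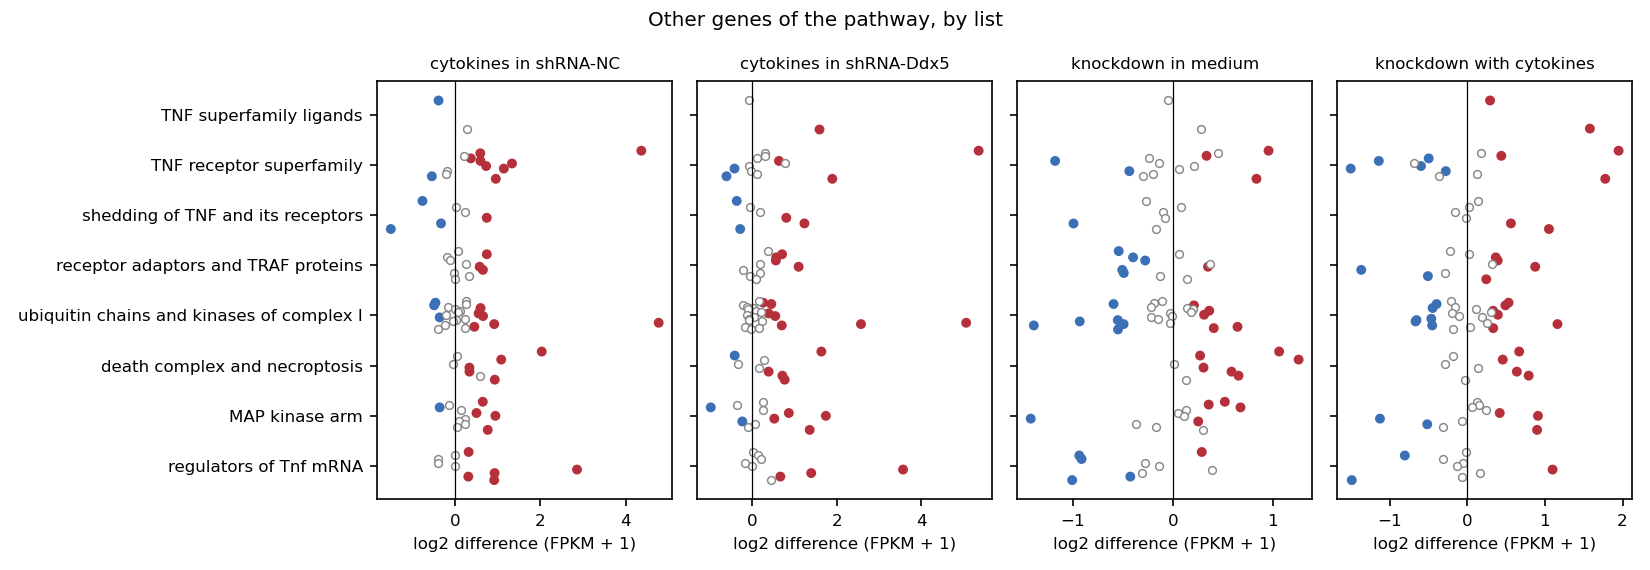
Log2 differences of FPKM + 1 (horizontal axes) of the 80 tested pathway genes in 8 lists (rows) for the cytokine and knockdown comparisons, with 1 point per gene. Filled red points rose and filled blue points fell past the threshold, open points did not pass, and the points at 4.37 and 4.78 in shRNA-NC cells are *Fas* and *Tnfaip3*.

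Of the 17 other ligands only 2 reached the filter. *Tnfsf15*, which encodes TL1A, was at most 0.388 FPKM in the other 3 groups and 2.60 to 2.86 FPKM in shRNA-*Ddx5* cytokines, and passed the filter only through that group, so no test of its difference is given. *Eda*, the ectodysplasin gene, fell with cytokines in shRNA-NC cells, by 0.40 on the log2 scale, and had means of 1.74, 1.66, 1.08 and 1.55 FPKM in shRNA-NC medium, shRNA-*Ddx5* medium, shRNA-NC cytokines and shRNA-*Ddx5* cytokines. Among the 26 other receptors of the family 12 were tested, of which 8 rose and 1 fell with cytokines in shRNA-NC cells (33.8% of all genes changed), and 3 rose and 2 fell in shRNA-*Ddx5* cells (27%). The interaction passed for 4 of the 12, 2 in each direction, where 8.21% of all genes passed (3.46% positive and 4.75% negative). *Fas*, the death receptor for FASL, had 0.198 to 0.353 FPKM in shRNA-NC medium and 20.9 to 29.0 with cytokines, and 1.29 to 1.83 and 97.8 to 103 FPKM in shRNA-*Ddx5* cells. Its differences were 4.37 and 5.36 for the cytokines, and 1.95 for the knockdown with cytokines, which left it at 3.94 times the shRNA-NC mean. In mean FPKM its cytokine rise was 93.9 times in shRNA-NC and 67.9 times in shRNA-*Ddx5* cells, so which line responded more depends on the scale. *Tnfrsf9*, which encodes 4-1BB, was 4.003 times higher with the knockdown under cytokines (1.78), whereas *Tnfrsf21*, which encodes death receptor 6, was 0.297 times (-1.50). *Tnfrsf21* rose with cytokines in shRNA-NC cells from a mean of 4.87 to 12.1 FPKM (1.15), and had 5.10 and 3.59 in the knockdown line, with an interaction of -1.56 (SE 0.17). *Tnfrsf11b*, the gene of the decoy receptor osteoprotegerin, was lower with the knockdown in both media (-1.18 and -1.14). *Tnfrsf12a*, the receptor for TWEAK, rose with cytokines in shRNA-NC cells by 1.34 (SE 0.28) and had means of 96.4, 82.3, 231 and 142 FPKM in the same order of groups.

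The 6 genes of receptor and ligand shedding were all tested. With cytokines 1 rose and 3 fell in shRNA-NC (33.8% of all genes changed), and 2 rose and 2 fell in shRNA-*Ddx5* cells (27%). *Adam17*, the protease that releases TNF and its receptors from the cell surface, had means of 12.4, 13.2, 12.7 and 12.8 FPKM in shRNA-NC medium, shRNA-*Ddx5* medium, shRNA-NC cytokines and shRNA-*Ddx5* cytokines, and its group ranges overlap. *Timp3*, its inhibitor, had means of 184, 163, 64.2 and 134 FPKM in the same order. It fell with cytokines in shRNA-NC cells (-1.50) and by less in shRNA-*Ddx5* cells (-0.28, limma adjusted p = 0.042, or 0.059 with the replicate number as a block). *Timp3* was 2.09 times higher with the knockdown under cytokines (1.05), and had an interaction of 1.22 (SE 0.13). *Rhbdf2*, which encodes the ADAM17 partner iRhom2, had means of 4.91, 1.94, 3.74 and 5.95 FPKM. It was lower with the knockdown in medium (-1.003), rose with cytokines in that line (1.24) and had an interaction of 1.57 (SE 0.15). *Rhbdf1* rose with cytokines in both lines (0.75 and 0.81). *Adam10*, a related protease, fell with cytokines in shRNA-NC cells (-0.76) and in shRNA-*Ddx5* cells (-0.36, limma adjusted p = 0.038). Its means were 57.3, 47.9, 33.4 and 36.8 FPKM.

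Among the other adaptors 10 of 12 were tested, of which 3 rose with cytokines in shRNA-NC (33.8% of all genes changed) and 4 in shRNA-*Ddx5* cells (27%), and 0 fell in either. *Tradd*, which links TNFR1 to RIPK1 and TRAF2, had means of 14.4, 18.98, 17.2 and 21.6 FPKM in the order of groups used above. *Tank* rose with cytokines in both lines (0.75 and 0.71). *Traf4* rose with cytokines in shRNA-NC cells (0.66) and had means of 10.2, 6.91, 16.6 and 5.82 FPKM. With the knockdown under cytokines *Traf4* was 0.352 times the shRNA-NC mean (-1.37), and *Traf3ip2*, the adaptor of the IL-17 receptor, was 2.01 times (0.88). In the list of ubiquitin chains and kinases 22 of 23 were tested, of which 6 rose and 3 fell with cytokines in shRNA-NC and 7 rose and 0 fell in shRNA-*Ddx5* cells, where 33.8% and 27% of all genes changed. *Tnfaip3*, which encodes the ubiquitin-editing inhibitor A20, rose from a mean of 1.75 to 74.6 FPKM in shRNA-NC (4.78) and from 1.69 to 89.0 in shRNA-*Ddx5* cells (5.06). Its partner *Tnip1* rose by 0.92 and 2.58, was 2.27 times higher with the knockdown under cytokines and had an interaction of 1.66 (SE 0.21). *Cyld*, a deubiquitinase, fell with cytokines in shRNA-NC cells (-0.46) and had an interaction of 0.72 (SE 0.12), with means of 12.8, 11.1, 9.05 and 13.5 FPKM. *Rnf31*, the catalytic subunit of the linear ubiquitin ligase, rose with cytokines in both lines (0.55 and 0.39). *Tnip2* and *Ikbkb* were lower with the knockdown in medium (-1.39 and -0.59).

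In the list of the death complex 8 of 9 genes were tested. With cytokines 5 rose and 0 fell in shRNA-NC (33.8% of all genes changed) and 4 rose and 1 fell in shRNA-*Ddx5* cells (27%). With the knockdown 6 rose and 0 fell in medium (47% of all genes changed, 25.3% up) and 4 rose and 0 fell with cytokines (45.6%, 23.5% up). *Ripk3*, the kinase needed for necroptosis, was at most 0.0970 FPKM in every library and was not tested. *Casp8*, the initiator caspase held back by cFLIP, had means of 11.8, 11.8, 11.4 and 9.10 FPKM in the order of groups used above. *Bid*, a substrate of caspase-8, had means of 9.34, 20.6, 41.4 and 66.2 FPKM. It rose with cytokines by 2.04 and 1.64 and with the knockdown by 1.06 and 0.67. *Fadd*, the adaptor that recruits caspase-8, rose with the knockdown in both media (0.59 and 0.64) and with cytokines in both lines (0.34 and 0.39). *Mlkl*, the effector of necroptosis, rose with cytokines in both lines (0.93 and 0.77).

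In the MAP kinase arm 11 of 12 genes were tested, of which 4 rose and 1 fell with cytokines in shRNA-NC (33.8% of all genes changed) and 4 rose and 2 fell in shRNA-*Ddx5* cells (27%). *Map3k8*, the kinase Tpl2, had means of 0.446, 0.565, 1.83 and 4.26 FPKM in the order of groups used above, and was 2.32 times higher with the knockdown under cytokines. *Map3k8* and *Map3k5*, at most 0.643 and 0.753 FPKM in medium, passed the filter only through the cytokine groups. Both are among the genes tested, and no test of their cytokine differences is given. *Map2k6* had 1.48 to 1.69 FPKM in shRNA-*Ddx5* medium and at most 0.704 in any other group. It passed the filter only through that group, so no test of its differences is given. The fall counted above in shRNA-NC cells is that of *Map2k6*. With the knockdown *Mapk11*, which encodes p38β, was 0.296 times the shRNA-NC mean in medium and 0.400 times with cytokines (-1.42 and -1.12). All 9 regulators of *Tnf* mRNA were tested, of which 5 rose with cytokines in shRNA-NC (33.8% of all genes changed) and 3 in shRNA-*Ddx5* cells (27%), and 0 fell in either. *Zc3h12a*, which encodes the RNase Regnase-1, rose by 2.86 and 3.57, and *Zfp36*, the gene of tristetraprolin, by 0.93 and 1.40. *Zfp36l2* was lower with the knockdown in both media (-1.01 and -1.49).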

How the data were processed

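RNA of 12 libraries, 3 per group as the labels give them, was analysed from FPKM that the authors deposited after counting fragments on genes. The submitters' processing notes list HISAT2 2.0.5, featureCounts 1.5.0-p3 and DESeq2 1.20.0 and name the build mm10, while the file's coordinates are GRCm39. Whether counting used strand is not given in the sources used here. In 100% of values FPKM times gene length came out as whole fragments once divided by a constant of the library (tolerance 0.01), which gave 14119199 to 19276520 fragments per library. The denominators were 0.957 to 1.08 times these sums. They were 1.06 to 1.08 times in shRNA-NC medium and at most 1.04 times in every other library. FPKM in shRNA-NC medium is thus lower for the same share of fragments. Rescaling to the sum of fragments moved the median over all genes from 0.02 to -0.05 for cytokines in shRNA-NC. For the knockdown in medium it moved from 0.03 to -0.05.

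Values were tested as log2(FPKM + 1) with limma 3.58.1 in R 4.3.3 (4 group means, eBayes with trend, filter of 1 FPKM in 3 libraries, Benjamini-Hochberg adjustment, threshold 0.05). The study describes replicates of these 4 groups as independent experiments, and p-values measure the spread between them, pooled over the 4 groups. That spread was unequal. The chi-square of fragments per degree of freedom between pairs of replicates was 4.30 to 6.59 in shRNA-*Ddx5* cytokines. In the other groups it was 8.31 to 39.3. An exact permutation test of 3 libraries against 3 cannot go below 0.1 and was not used for calls. Tested on simulated data for cytokines in shRNA-NC (12368 genes), the model recovered 82 of 100 genes changed by 1 and 98 of 100 changed by 2 on the log2 scale, with 10 false calls.

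The members and lists were chosen with earlier results of these data known. All members were named. Of the 8 pathway lists up to 3 rises and 3 falls per list and comparison among genes past the threshold were eligible, with *Tradd*, *Tnfaip3*, *Casp8*, *Adam17*, *Ripk3*, *Fadd*, *Cyld* and *Rnf31* for their roles, and not every eligible gene is reported here. *Lta* and *Ltb* were added for their relation to *Tnf*. For the 3 members with the largest cytokine difference in shRNA-NC, the 3 nearest genes by correlation were named.

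Other settings tried were no filter, a pseudocount of 0.1, 1 FPKM in all 12 libraries, quantile normalization, rescaling to the sum of fragments, voom weights, eBayes without trend, only 6 libraries, a limit of 1 on the log2 difference, a replicate block and each library left out. Figures used matplotlib 3.10.9 in Python 3.11.15. Protein sequences and splice forms were not analysed here.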

Additional observations from a re-analysis of the deposited data

Results flagged for a closer look

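By the interaction in limma, 12 of the 80 tested pathway genes passed the threshold with a positive and 6 with a negative value, where 8.21% of all genes tested passed. The genes listed next were picked from those past the threshold, so that each of them passed follows from the choice. On log2(FPKM + 1) the response in shRNA-*Ddx5* cells less that in shRNA-NC cells was 1.66 for *Tnip1*, 1.57 for *Rhbdf2*, 1.22 for *Timp3*, 0.99 for *Fas*, 0.72 for *Cyld* and -1.56 for *Tnfrsf21*, with adjusted p-values of at most 0.0050. *Fas* had 0.271 FPKM on average in shRNA-NC medium and 1.48 in shRNA-*Ddx5* medium, and its value depends on the scale: it was -0.11 with a pseudocount of 0.1 (limma adjusted p = 0.85) and -0.46 with voom weights (limma adjusted p = 0.54). No member met the same test at the threshold.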

How the results depend on the processing

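The number of members past the threshold was 5, 8, 5, 4 and 0 for cytokines in shRNA-NC, cytokines in shRNA-*Ddx5*, knockdown in medium, knockdown with cytokines and the interaction. Also requiring an absolute log2 difference of at least 1 left 3, 3, 0 and 0 in the first 4 comparisons, since only *Tnfrsf1b*, *Traf1* and *Birc3* moved that far. For the knockdown in medium the number was 3 under quantile normalization and 3 in a fit of only its 6 libraries, and for the interaction it was 1 under quantile normalization. The same limit took the pathway genes past the threshold from 41, 35, 39, 42 and 18 to 8, 12, 7, 11 and 5. Leaving out each library in turn gave 5 to 5, 6 to 8, 3 to 5, 4 to 5 and 0 to 1 members. Other alternatives changed these numbers by less than 1.5 times. The median over all genes moved by less than 0.1 between scalings.

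Differences near 0 changed sign: the knockdown in medium was -0.0145 for *Traf2* and -0.0069 for *Traf3* when rescaled to the sum of fragments, the interaction of *Ripk1* was -0.0177 under quantile normalization and that of *Tnfrsf1b* 0.0265 when rescaled to the sum of fragments. With 1 library left out, the knockdown difference of *Cflar* with cytokines ranged from -0.12 to 0.0436, and the interaction from -0.0540 to 0.0709 for *Tnfrsf1b*, -0.0575 to 0.0907 for *Traf2* and -0.0632 to 0.0800 for *Ripk1*. The interaction of *Fas* was -0.106 with a pseudocount of 0.1 and -0.462 with voom weights. The cause was not tested. The calls of *Cflar* (cytokines in shRNA-*Ddx5*) and *Birc2* (knockdown in medium) were also lost with no filter (limma adjusted p = 0.080 and 0.056), *Cflar* and *Tnfrsf1a* (knockdown in medium) when rescaled to the sum of fragments (0.078 and 0.13), *Cflar* in a fit of only 6 libraries (0.091), as were *Tnfrsf1a* (0.076) and *Birc2* (0.086) for the knockdown in medium, and *Birc2* under quantile normalization (0.052).

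Deviations of libraries with the same replicate number correlated at a mean of -0.18, -0.09, 0.27, 0.0051 and -0.05 in the 5 comparisons. For the knockdown in medium, where the mean was highest, the pairs ran from 0.04 to 0.45. The mean for libraries of other numbers was -0.14. Because deviations within a group sum to 0, that mean largely follows from the first and is no separate comparison. The labels do not say whether libraries of a number belong together, and the main fit does not pair them. With the replicate number as a block the calls of *Cflar* for cytokines in shRNA-*Ddx5* cells (0.34, limma adjusted p = 0.063) and of *Tnfrsf1a* for the knockdown in medium (0.30, limma adjusted p = 0.051) were lost, and the block changed no other member's call. Low counts limit *Birc3* in medium and *Tnf*.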
